A study of Mus musculus with 15 samples.

Results

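Myc, Mycn, Max, Mga, Mnt, Mxd3 and Mxd4, 7 genes of the Myc and Max network, were followed by RNA-seq in mouse embryonic stem cells (ESC) with altered Hmga1. They were taken by gene symbol from the count table of each experiment, and all 7 were listed among its 21662 genes. Hmga1 and Hmga2 are small chromatin proteins that bind AT-rich DNA, and Hmga1 is known as a target of Myc in other cells.

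The KO experiment held wild-type cells (WT, 3 samples a, b and c), an Hmga1 KO made with CRISPR-Cas9 (2 samples, a and b) and, in that KO, an Hmga1 add-back and an Hmga2 add-back (2 samples each, a and b). The full-deletion experiment held 3 further WT samples and 3 of a line whose entire Hmga1 coding sequence was removed. The paper describes the KO as a frameshift from which a shorter Hmga1 transcript is still made. By Western blot it found no Hmga1 protein in the KO or the full deletion. The cells are of the 159 background, a mix of 129Sv and C57Bl/6, grown with serum and LIF on feeder cells or gelatine. Each mutant or add-back genotype is a single cell line derived from 1 clone, the parental line carries the biotin ligase BirA, and the add-back cDNAs are driven by the CAG promoter at a fixed locus, so that genotype and clone cannot be told apart. Replicates were independent cultures, and a shared letter in the KO experiment marks libraries that were prepared on 1 day and sequenced together, a batch.

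Max is the common partner of the network. With Myc or Mycn it binds the E-box CACGTG and activates genes of growth and metabolism, while with Mnt, the Mxd proteins or Mga it recruits repressors to related sites. ESC are known to rely on Myc and Mycn for growth, and on Max and Mga to keep germline genes silent.

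In the NCBIM37 (mm9) annotation the 7 genes are spread over 6 chromosomes, with Mycn (chr12:12942902-12948720, minus strand) and Max (chr12:78038256-78063235, minus strand) on the same chromosome. Myc lies at chr15:61816946-61821929 on the plus strand, Mga at chr2:119722964-119795317 on the plus strand and Mnt at chr11:74644422-74659227 on the plus strand. Mxd3 lies at chr13:55426529-55431119 and Mxd4 at chr5:34516536-34530369, both on the minus strand. All are protein coding, and their counts are sums over exons. The AT content of the whole gene was 61.8% in Mga, higher than in 93.5% of the 19320 genes matched to the annotation (median 54.3%), and 54.1% in Max. It was lower in the other members, from 43.5% in Mnt to 47.2% in Mycn.

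The E-box is shown because it is the site the network's proteins share. A RefSeq promoter (GRCm38.p6, 250 bases before to 50 after the start) was in the table for 6 of the 7 members, not for Myc. CACGTG, which reads the same on both strands, was in 3 of these 6, beside 7.15% of all 32851 promoters. It was in the promoters of Max, Mnt and Mxd4, and not in those of Mycn, Mga or Mxd3. In Max the motif begins 3 bases before the start and ends on the third base of the transcript, in Mnt it begins 123 bases upstream, and in Mxd4 219 bases upstream. The sequences follow in the direction of each gene, 5′ to 3′, with the E-box in capitals. Each matched the NCBIM37 genome exactly at a single place.
Max (chr12:78063227-78063250, minus strand): ggtgagcccggtCACGTGttaggg
Mnt (chr11:74644276-74644335, plus strand): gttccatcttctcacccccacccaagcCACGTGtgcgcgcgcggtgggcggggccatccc
Mxd4 (chr5:34530546-34530605, minus strand): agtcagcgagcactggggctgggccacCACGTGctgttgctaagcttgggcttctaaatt

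Depth per sample ranged from 13465399 to 34952136 counts among the 9 samples of the KO experiment, and from 14832310 to 21708492 among the 6 of the full deletion and its WT. Levels are given as CPM, the read count scaled to a common library size with TMM within each experiment, so CPM should be compared within an experiment. All 10 ESC markers were detected in every sample, at a summed level of 4440 to 8025 CPM, while the 10 feeder fibroblast markers summed to between 12.2 and 21.9 CPM with up to 5 of them at 0. Sample b of WT in the full-deletion experiment stood apart from the other samples of that experiment, with a TMM factor of 0.752 against 0.986 to 1.12 and 8.78% of its counts in 10 genes against 4.67% to 5.38%. Hmga1 was at 3.42% to 3.51% of WT in the full deletion, taking samples of the same letter, which are not paired there. In the KO it was at 46.7% (batch a) and 34.8% (batch b) of WT. The libraries labelled Hmga1 add-back had 39.6% and 44.5% of the Hmga1 level of WT, so the added Hmga1 was not visible in these counts, and the difference from the KO had a log2 value of 0.04 ± 0.17 (SE). By Western blot, the paper reports Hmga1 protein in the Hmga1 add-back line at a level similar to WT. Hmga2 in the Hmga2 add-back was at 249.1 and 221.9 CPM against 23.8 and 12.8 CPM in WT of the same batches.

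Mycn was the most abundant member per unit length. Its mean level was 82.7 ± 16.7 RPKM, the CPM divided by the counted kilobases of exon (SD, n = 9, over all groups of the KO experiment), and 99.2 ± 3.07 RPKM across the full-deletion experiment (SD, n = 6), above 93.7% and 94.6% of the genes tested. Mycn is the Myc paralog known for its role in embryonic and neural progenitors.

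Mga, the large protein with a second DNA-binding domain of the T-box type, had 45.0 ± 11.9 and 40.3 ± 3.58 RPKM for the same experiments, and Max had 39.6 ± 4.66 and 41.4 ± 2.06 RPKM. Mga was above Max in 7 of 15 samples, so that these neighbours in the order did not differ beyond their spread. Myc followed with 13.3 ± 4.98 and 10.1 ± 2.91 RPKM.

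The repressor partners of Max were lower. Mnt, the broadly expressed antagonist of Myc, had 7.07 ± 1.43 and 6.81 ± 1.05 RPKM. Mxd3, a family member linked to dividing cells, had 4.88 ± 0.754 and 4.88 ± 0.869 RPKM. Myc was above Mnt in 12 of 15 samples and Mnt above Mxd3 in 14 of 15, and the lowest value of the higher gene lay below the highest of the lower gene in both pairs.

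Mxd4 was at the bottom, with 0.595 ± 0.236 and 0.406 ± 0.0726 RPKM and raw counts of 5 to 41 per sample. Its counted exons span 1179 bases, 30.4% of the 3882 exonic bases that GENCODE lists for the gene in the same build, so reads from the remaining exonic sequence would not be in its count. Mycn was above Mga, Max above Myc and Mxd3 above Mxd4 in all 15 samples.

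**Figure D1:**
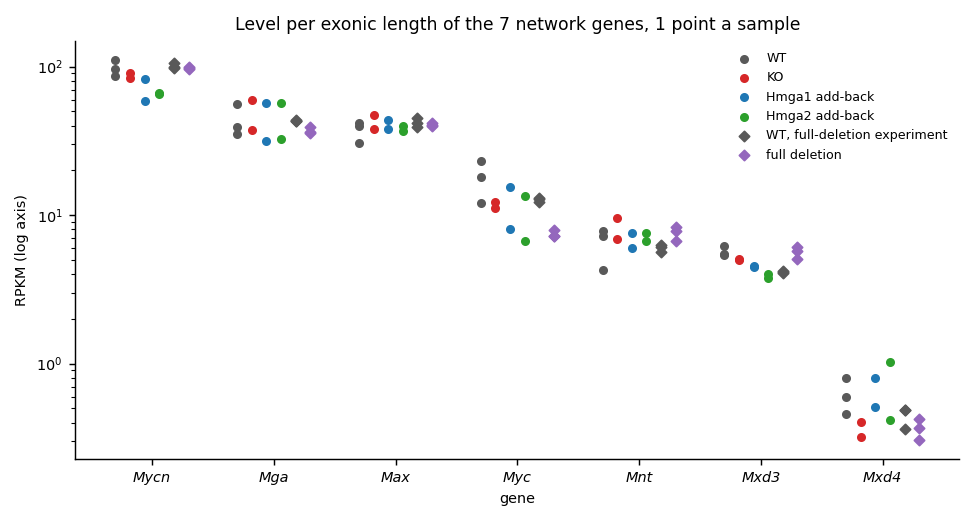
RPKM (log axis) of the 7 network genes, 1 point per sample, coloured by group, with circles for the KO experiment and diamonds for the full-deletion experiment. Mycn sits at the top in each sample, Mga and Max overlap, and Mxd4 lies at or below 1.03 RPKM.

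The full deletion compares cells without the Hmga1 coding sequence with WT, and here Myc was the member that passed an adjusted p of 0.05. Myc had 31.9, 32.5 and 30.3 CPM in the WT samples, ordered a to c as in all values below, and 19.8, 17.97 and 17.9 CPM in the full deletion. The groups did not overlap, and the samples within each differed by little. The full deletion was at 58.6% of the WT level, a log2 fold change of -0.77 ± 0.10 (SE), with an edgeR quasi-likelihood adjusted p of 0.0188 over 13098 genes. This is past an adjusted p of 0.05, as were 3.77% of genes in the lower direction, but not the study's threshold of an adjusted p of 0.01 and a 2-fold change.

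The same fold change held without the sample that stood apart, at -0.75 with an adjusted p of 1.88e-06. The adjusted p rose to 0.0727 without WT c, to between 0.114 and 0.147 when a full-deletion sample was left out, and to 0.0764 with summed counts as the scaling. Over all settings that left out 1 sample, the log2 fold change stayed between -0.82 and -0.75. The lowest adjusted p of any alternative was 5.63e-08, from the DESeq2 Wald test.

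Mycn and Max did not pass the test in the full deletion. Mycn had 266.7, 286.7 and 270.9 CPM in WT and 265.1, 263.8 and 269.6 CPM in the full deletion, with overlapping groups and a log2 fold change of -0.05 (95% interval -0.27 to 0.18). Max had 94.3, 82.3 and 87.5 CPM in WT and 87.6, 83.8 and 84.2 CPM in the full deletion, with a log2 fold change of -0.05 (interval -0.27 to 0.17). The edgeR adjusted p values were 0.743 and 0.727. With summed counts as the scaling, which moved the median of all genes from 0.04 to 0.32 on the log2 scale, the values were 0.24 and 0.23, and thus below that median.

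The ratio of Mycn to Myc counts, which does not depend on the scaling between libraries, was higher in each full-deletion sample than in each WT sample. Its log2 value was 3.85 ± 0.0897 (SD, n = 3) in the full deletion and 3.12 ± 0.0518 (SD, n = 3) in WT. The difference of 0.73 had a two-sided exact permutation p of 0.1, the smallest that 3 against 3 samples can give. By letter the differences were 0.68, 0.74 and 0.76, although the letters do not pair the samples of this experiment. Myc made up 10.9% to 11.6% of the summed RPKM of Myc and Mycn in WT and 6.78% to 7.57% in the full deletion.

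The repressor partners lay on either side of WT. Mga had 646.8, 653.4 and 649.5 CPM in WT and 584.4, 546.8 and 537.6 CPM in the full deletion (log2 fold change -0.22 ± 0.11, SE). Mnt had 28.8, 27.9 and 25.9 CPM in WT and 38.3, 30.9 and 35.7 CPM in the full deletion (0.35 ± 0.12). Mxd3 had 5.36, 5.33 and 5.44 CPM in WT and 7.44, 6.61 and 7.86 CPM in the full deletion (0.44 ± 0.14). For these 3 genes the groups did not overlap, with Mga lower and Mnt and Mxd3 higher in the full deletion, and the edgeR adjusted p values were 0.166, 0.0842 and 0.0757.

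Together with Myc, 4 of the 6 members tested had groups that did not overlap, beside 51.3% of all genes tested, so the members' share lies near the background. Without WT b, the sample that stood apart, the edgeR adjusted p was 0.00204 for Mga, 0.00513 for Mnt and 0.0278 for Mxd3, while 22.0% of all genes then passed 0.05 in the lower direction and 20.5% in the higher. Mxd4, with a mean count of 9.67, was under the minimum of 10 and was not tested. Its values were 0.569, 0.429 and 0.578 CPM in WT and 0.363, 0.432 and 0.4998 CPM in the full deletion, overlapping groups of at most 12 reads each.

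At the study's threshold none of the 6 members was called in the full deletion with edgeR, where 0.0687% of all genes were, and none with DESeq2 or limma. At an unadjusted p of 0.05, 3 of the 6 passed with edgeR, beside 37.0% of all genes.

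**Figure D2:**
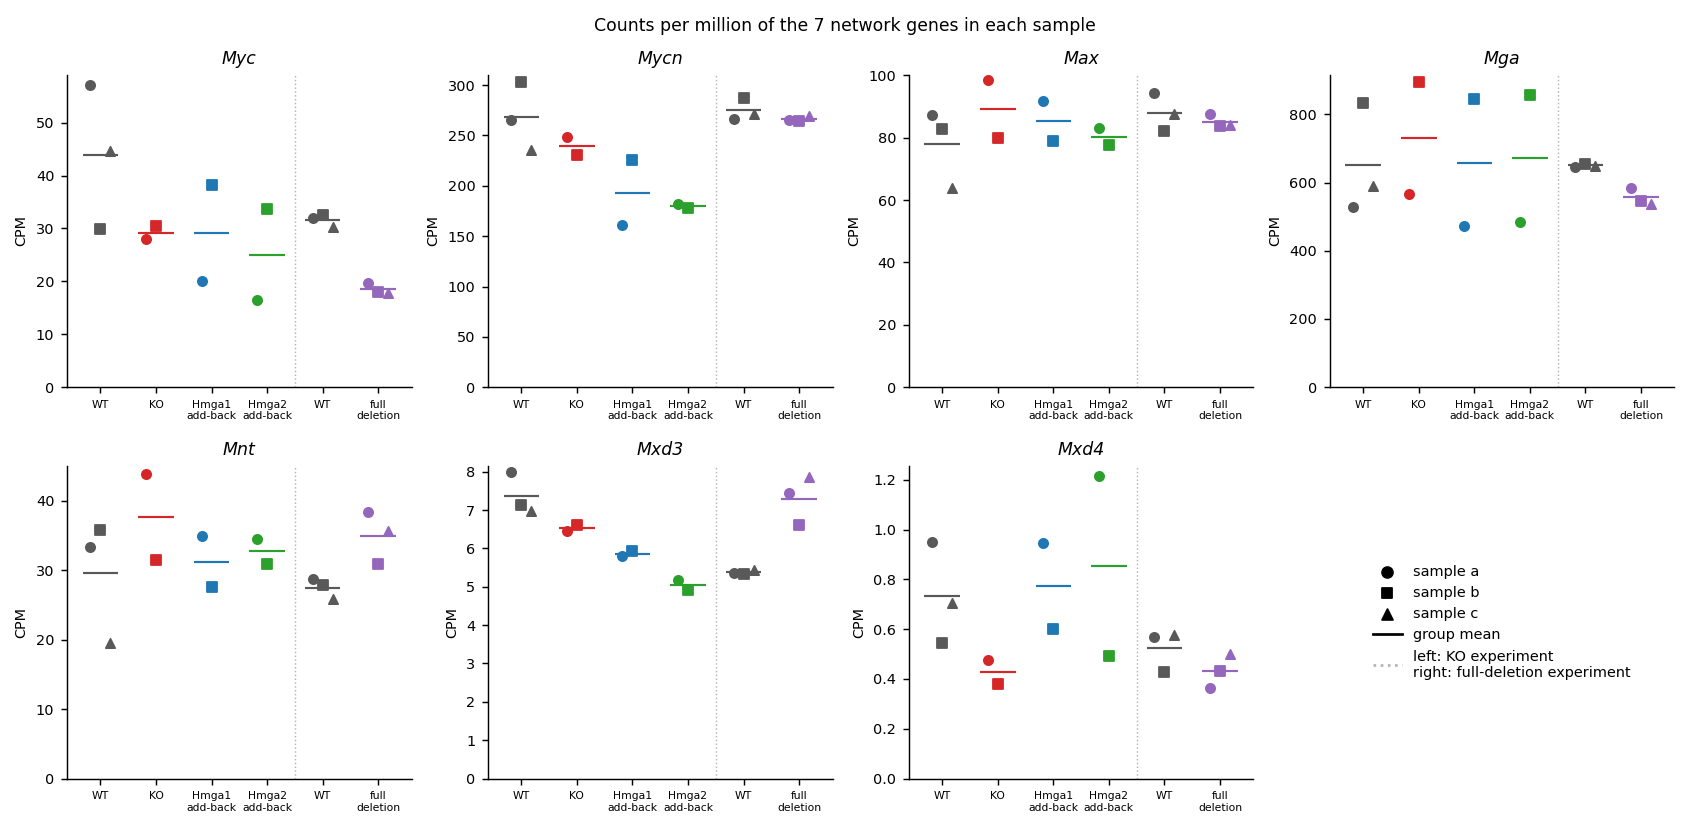
CPM of each of the 7 network genes (vertical axes from 0) in each of the 15 samples by group, with the symbol for the sample letter and a line for the group mean. Myc is at 17.9 to 19.8 CPM in the full deletion against 30.3 to 32.5 CPM in its WT, and Mga in the KO experiment lies lower in batch a than in batch b in all 4 groups.

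In the KO the members were compared with WT with the batch as a term. Batch c held WT c alone, so its term took up that sample. The fold changes of the KO and the add-backs against WT thus rested on batches a and b. Myc had 57.1, 29.95 and 44.7 CPM in WT and 27.95 and 30.4 CPM in the KO. The KO samples lay at the lower end of WT, overlapping with WT b. The log2 fold change was -0.64 ± 0.40 (SE, edgeR adjusted p = 0.549), and it differed by batch, since the KO was at 49.0% of WT in batch a and at 102% in batch b. Left out in turn, WT a turned the fold change to 0.35 and WT b brought it to -1.28 with an adjusted p of 0.0305, the lowest over the left-out samples, where the highest was 0.973.

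The spread of Myc in WT was large for this experiment. Between batch a and batch b of WT, Myc differed by 0.93 on the log2 scale, larger in size than in 92.9% of genes tested. The same difference was -0.12 in the KO, -0.93 in the libraries labelled Hmga1 add-back and -1.02 with Hmga2 added back, so batch a was not the higher one in each group.

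Mycn had 264.8, 303.3 and 235.5 CPM in WT and 248.1 and 230.2 CPM in the KO, with overlapping groups and a log2 fold change of -0.24 ± 0.15 (SE). The KO was at 93.7% of WT in batch a and at 75.9% in batch b. The log2 ratio of Mycn to Myc counts was 0.38 higher in the KO (exact permutation p = 0.5, smallest possible 0.1), with a difference of 0.94 in batch a and of -0.42 in batch b.

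Max had 87.5, 82.9 and 64.0 CPM in WT and 98.5 and 79.8 CPM in the KO. Mga had 527.0, 833.1 and 589.8 CPM in WT and 564.9 and 895.2 CPM in the KO. Mnt had 33.4, 35.8 and 19.6 CPM in WT and 43.8 and 31.5 CPM in the KO. For these genes the groups overlapped and the log2 fold changes were 0.06, 0.10 and 0.11. Mga in the KO was at 107% of WT in batch a and at 107% in batch b.

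Mxd3 had 8.001, 7.14 and 6.97 CPM in WT and 6.45 and 6.61 CPM in the KO (log2 fold change -0.22 ± 0.20, SE). Mxd4 had 0.949, 0.543 and 0.706 CPM in WT and 0.477 and 0.380 CPM in the KO (-0.84 ± 0.45). In both genes each KO sample lay below each WT sample. Such groups without overlap were thus seen in 2 of 7 members, beside 23.5% of all genes tested, and the edgeR adjusted p values were 0.690 and 0.485. For Mxd4 the counts were 17 and 5 reads in the KO, with 95% counting intervals of 9.9 to 27.2 and 1.62 to 11.7.

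None of the 7 members was called in the KO with edgeR, where 0.0216% of all genes were, and none with DESeq2 or limma. None had an unadjusted p under 0.05 with edgeR, beside 12.6% of all genes. The lowest adjusted p among the members was 0.485.

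The add-back lines were compared with WT and with the KO, and these comparisons share the WT or KO samples. Mycn stood out by its level. It had 160.9 and 225.2 CPM in the libraries labelled Hmga1 add-back and 182.2 and 178.0 CPM with Hmga2 added back, all 4 values below each WT and KO sample.

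Against WT the log2 fold change of Mycn was -0.57 ± 0.15 (SE) in the libraries labelled Hmga1 add-back and -0.65 ± 0.15 for added Hmga2. With edgeR neither passed, with adjusted p of 0.203 and 0.126, while with the DESeq2 Wald test the adjusted p values were 0.0403 and 0.00756, at changes of under 2-fold. Leaving out samples gave edgeR adjusted p values of 0.127 to 1 and of 0.0738 to 0.622. Within batches a and b, Mycn was at 60.8% and 74.2% of WT in the Hmga1 add-back libraries, and at 68.8% and 58.7% of it with Hmga2 added back. Against the KO the differences were -0.33 (interval -0.67 to 0.02) and -0.41 (interval -0.75 to -0.07), with edgeR adjusted p of 1 and 0.877.

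Mxd3 had 5.80 and 5.92 CPM in the libraries labelled Hmga1 add-back and 5.18 and 4.93 CPM with Hmga2 added back, again below each WT and KO sample. The log2 fold changes against WT were -0.37 ± 0.20 and -0.58 ± 0.20, with edgeR adjusted p of 0.455 and 0.227.

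Myc had 19.99 and 38.2 CPM in the libraries labelled Hmga1 add-back and 16.6 and 33.6 CPM with Hmga2 added back. In both lines batch a was the lower one, and the groups overlapped with WT and KO. The log2 fold changes against WT were -0.70 ± 0.41 and -0.91 ± 0.41 (SE), with edgeR adjusted p of 0.480 and 0.305. They came from batch a, where the levels were 35% and 29% of WT, since in batch b they were 127% and 112%.

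Max had 91.9 and 78.9 CPM in the libraries labelled Hmga1 add-back and 83.2 and 77.5 CPM with Hmga2 added back. Mga had 471.2 and 845.9 CPM and then 484.5 and 857.3 CPM in the same order, and Mnt had 34.9 and 27.5 CPM and then 34.6 and 30.8 CPM. All overlapped with WT, with log2 fold changes between -0.16 and 0.00. Mga was lower in batch a than in batch b in all 4 groups of the experiment, with log2 differences of -0.66 in WT and in the KO and of -0.84 and -0.82 in the add-backs.

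Mxd4 had 0.948 and 0.600 CPM in the libraries labelled Hmga1 add-back and 1.21 and 0.493 CPM with Hmga2 added back. All 4 lay above both KO samples, and they overlapped with WT. Against the KO the log2 differences were 0.88 ± 0.45 and 1.04 ± 0.44 (SE), with edgeR adjusted p of 1 and 0.877, on 5 to 41 reads per sample.

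Groups did not overlap for 2 of 7 members in each add-back against WT (Mycn and Mxd3), beside 17.8% of all genes for the libraries labelled Hmga1 add-back and 26.8% where Hmga2 was added. They did not overlap for 3 of 7 in each add-back against the KO (Mycn, Mxd3 and Mxd4), beside 14.8% and 20.4% of all genes. None of the members was called with edgeR, DESeq2 or limma in these 4 comparisons. The share of all genes called with edgeR was 0.0144% and 0.0647% against WT and 0% and 0.00719% against the KO. At an unadjusted p of 0.05 with edgeR, 1 and 2 members passed against WT, beside 13.3% and 16.9% of all genes, and 0 and 2 against the KO, beside 2.80% and 5.09%.

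**Figure D3:**
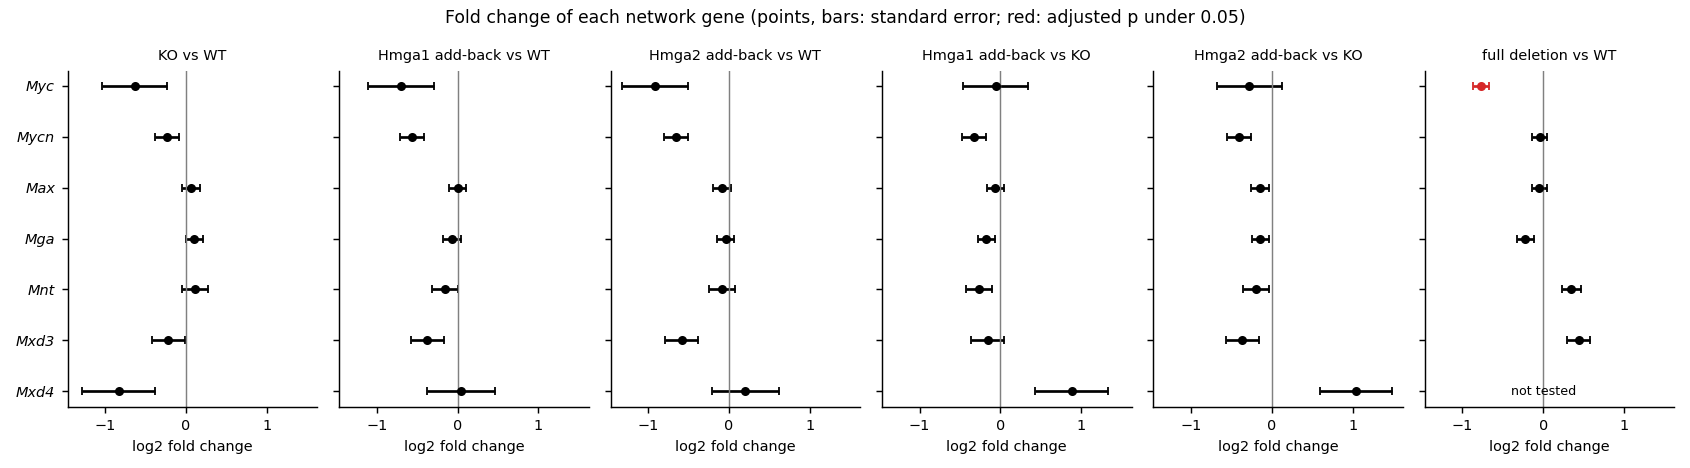
Log2 fold change (horizontal axis, points) and its SE (bars) of each network gene in the 6 comparisons, from the edgeR fit, with an adjusted p under 0.05 in red. Myc in the full deletion, at -0.77, is the red point. Mxd4 was not tested there.

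The KO and the full deletion both disrupt Hmga1, and the difference of their effects was tested as an interaction over all 15 samples. None of the 6 members tested was called with edgeR, DESeq2 or limma (0.0843% of all genes with edgeR), and 1 had an unadjusted p under 0.05, beside 18.7% of all genes. For Myc, the difference was -0.14 ± 0.44 on the log2 scale (SE, interval -1.11 to 0.82, edgeR adjusted p = 0.864), an interval too wide to tell the effects on Myc apart. Mxd3 had 0.65 ± 0.23 (adjusted p = 0.225), being lower in the KO and higher in the full deletion.

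Mycl, the third Myc paralog, is no member but belongs to the same network. It had 3.69 RPKM on average over the KO experiment, against 2.64 in the other one, between Mxd3 and Mxd4. In CPM it was 8.78, 6.31 and 9.01 in WT and 11.6, 9.37 and 10.7 in the full deletion, without overlap, beside 51.3% of all genes. Its log2 fold change was 0.39 ± 0.18 (SE, edgeR adjusted p = 0.151). Of the 6 tested genes among the other family members, Mlxipl, a glucose-responsive factor that pairs with Mlx, was the 1 that passed an adjusted p of 0.05 with edgeR in the full deletion. It had 4.37, 7.35 and 4.48 CPM in WT and 11.9, 9.07 and 11 CPM in the full deletion (log2 fold change 0.99, adjusted p = 0.0456), beside 4.47% of all genes higher. It did not pass without WT a, WT c or any full-deletion sample. Without WT b it was at 1.26 (edgeR adjusted p = 3.7e-06), and 2 other genes of the list were lower. Of all genes, 20.5% then passed 0.05 in the higher direction and 22.0% in the lower.

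Genes widely described as Myc targets were mostly lower in the full deletion. Of 28 tested, 6 passed an adjusted p of 0.05 with edgeR, all lower, beside 3.77% of all genes lower and 4.47% higher. The median log2 fold change was -0.32, beside 0.04 over all genes tested. Of the 28, 21 were negative, beside 6104 of all 13098 genes.

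Tfrc, the transferrin receptor, had 637.7, 921.9 and 821.0 CPM in WT and 441.7, 494.3 and 444.6 CPM in the full deletion (log2 fold change -0.79, adjusted p = 0.0361). Srm, the spermidine synthase, was at -0.58 (adjusted p = 0.0419). Odc1, the ornithine decarboxylase that begins polyamine synthesis, had 1108, 1233 and 1148 CPM in WT and 752.6, 839.6 and 805.8 CPM in the full deletion (-0.54, adjusted p = 0.0419). In each of the 6 targets that passed, the full-deletion samples all lay below the WT samples. These 6 were picked by a test on the same samples, so this is no separate result. Over all genes tested, without such picking, groups did not overlap in either direction for 51.3%.

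Hspe1, a mitochondrial co-chaperone, was at -1.05 (edgeR adjusted p = 0.0433), with WT b at 1330 CPM and the other WT samples at 693.9 and 858.1 CPM. The remaining ones of the 6 were Eif4e, the cap-binding factor of translation, and Ccnd2, cyclin D2. Ncl, which encodes nucleolin, took a large share of the summed level of the list, with 15010, 40650 and 13610 CPM in WT and 9685, 10140 and 10050 CPM in the full deletion, and did not pass (log2 fold change -1.21, edgeR adjusted p = 0.0917). It is named here after its values were seen. The other 27 genes summed to 13590 to 18030 CPM in WT and 10700 to 10990 CPM in the full deletion.

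Without WT b, 20 of the 28 Myc targets were lower and 1 higher at an adjusted p of 0.05 with edgeR, beside 22.0% lower and 20.5% higher of all genes, and the median was -0.31. Without WT c, or without any full-deletion sample, none passed. None of the 28 was called at the study's threshold with edgeR or limma, while 3 were with DESeq2, which called 463 genes in all. With edgeR 16 of the 28 had an unadjusted p under 0.05, beside 37.0% of all genes. In the KO none of the 28 passed 0.05, 3 had an unadjusted p under 0.05 beside 12.6% of all genes, and the median was -0.05, beside -0.01 over all genes.

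Cofactors of Myc were counted in the same way. In the full deletion 1 of 14 passed an adjusted p of 0.05 with edgeR, Ruvbl1, an ATPase of the chromatin complexes that Myc recruits, with 539.0, 749.4 and 552.7 CPM in WT and 368.0, 419.3 and 387.7 CPM in the full deletion (adjusted p = 0.0494), beside 3.77% of all genes lower. Without WT b 4 of the 14 were lower, beside 22.0% of all genes, and without WT c or any full-deletion sample none passed. The median of the list was -0.08. Of 8 factors of Myc turnover, ubiquitin ligases and deubiquitinases among them, none passed with edgeR, and 4 had an unadjusted p under 0.05, beside 37.0% of all genes. In the KO none of either list passed with edgeR, with 1 in each at an unadjusted p under 0.05, beside 12.6% of all genes. At the study's threshold none of either list was called with edgeR, DESeq2 or limma in either comparison.

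Mga acts in a Polycomb complex with L3mbtl2, E2f6 and Pcgf6. Of 10 genes of that complex, Rnf2, its ubiquitin ligase, passed an adjusted p of 0.05 with edgeR in the full deletion, with 304.7, 456.5 and 316.6 CPM in WT and 199.0, 221.6 and 203.0 CPM in the full deletion (log2 fold change -0.79, adjusted p = 0.0404). In the main fit 3.77% of all genes were lower at that threshold. Without WT b 2 of the 10 were lower, beside 22.0% of all genes, and without WT c or any full-deletion sample none passed. In the KO none passed, with none at an unadjusted p under 0.05, beside 12.6% of all genes, and the median was -0.13.

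Of 13 tested germline genes known to be repressed by Max and Mga, 12 had a positive log2 fold change in the KO, beside 6761 of all 13912 genes. In the full deletion 5 were positive and 8 negative, beside 6994 and 6104 of all genes. Each add-back also had 12 positive against the same WT samples, beside 6961 (Hmga1) and 6907 (Hmga2) of all 13912 genes. The medians were 0.42 for the libraries labelled Hmga1 add-back and 0.53 with Hmga2 added back. In the KO the median log2 fold change was 0.58, beside -0.01 over all genes, with 8 at an unadjusted p under 0.05 beside 12.6% of all genes. Smc1b, a meiotic cohesin subunit, passed an adjusted p of 0.05 with edgeR (0.0224), as did 0.0431% of all genes in the higher direction. Its level was 6.89, 17.5 and 12.7 CPM in WT and 32.8 and 48.6 CPM in the KO, without overlap, a log2 fold change of 1.86. In the Hmga2 add-back it was at 31.6 and 51.2 CPM (1.86 against WT, adjusted p = 0.0122, beside 0.108% of all genes in that direction), and in the libraries labelled Hmga1 add-back at 15.2 and 30.7 CPM.

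In the full deletion the median of these 13 genes was -0.33, with 1 gene higher and 3 lower at an adjusted p of 0.05 with edgeR, beside 4.47% higher and 3.77% lower of all genes. Without WT b 3 were higher and 4 lower, beside 20.5% and 22.0% of all genes, and the median was -0.12. Without WT c or any full-deletion sample none passed. Mael, a piRNA pathway factor, had 7.26, 4.90 and 6.02 CPM in WT and 12.4, 13.6 and 11.95 CPM in the full deletion (log2 fold change 1.05, adjusted p = 0.0248). Sycp1, a protein of the synaptonemal complex, had 6.55, 12.3 and 7.23 CPM in WT and 2.96, 3.20 and 2.86 CPM in the full deletion (-1.52, adjusted p = 0.0293). Ddx4, the germ cell helicase, and Hormad1, a protein of the meiotic chromosome axis, were lower as well, at -0.93 and -0.87.

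For Hormad1 the effects of the KO and the full deletion differed, with a log2 interaction of -1.98 (edgeR adjusted p = 0.0298, beside 0.337% of all genes in that direction). It had 8.79, 14.7 and 13.5 CPM in WT and 23.5 and 23.9 CPM in the KO, and 37.6, 62.5 and 45.5 CPM in WT and 27.2, 29.9 and 22.4 CPM in the full deletion. None of the 13 was called at the study's threshold with edgeR or limma in the KO or the full deletion, and 2 were with DESeq2 in each. CACGTG was in a promoter of 9 of the 14 listed germline genes, all of which had a promoter in the table. It was in a promoter of 6 of the 22 Myc targets with a promoter in the table. A gene was counted here if any of its promoters held the motif, whereas the 7.15% above is over single promoters.

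**Figure D4:**
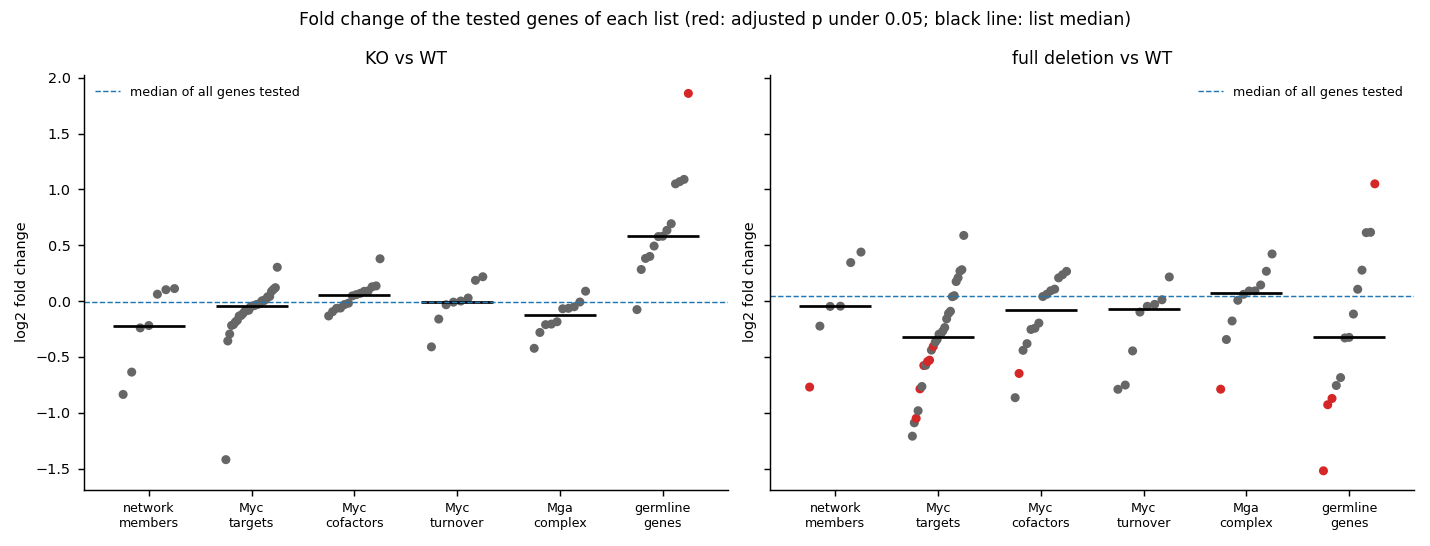
Log2 fold change (vertical axis) of the tested genes of 6 lists in the KO (left) and the full deletion (right) against WT, 1 point a gene, with the list median as a black line, the median of all genes as a dashed line and an adjusted p under 0.05 in red. The Myc targets have medians of -0.05 (KO) and -0.32 (full deletion), and the germline genes of 0.58 and -0.33.

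Markers of cell state were measured beside these genes. The 10 ESC markers summed to 4440 to 4572 CPM in the full deletion and 5008 to 8025 CPM in its WT, without overlap, and Fgf4, an ESC growth factor, passed at -0.70 (edgeR adjusted p = 0.0279). Of the 10, 7 were negative and 3 positive, Nanog, Utf1 and Dppa5a, named here after their values were seen. Over all genes tested, 6104 were negative and 6994 positive. The median of the 10 was -0.26, and without WT b it was -0.05. Then 2 genes were higher and 4 lower at an adjusted p of 0.05 with edgeR, beside 20.5% and 22.0% of all genes. The 10 early differentiation markers summed to 45.1 to 49.3 CPM in the full deletion and 21.8 to 30.9 CPM in WT, and Otx2, a factor of the formative state, passed at 1.34 (edgeR adjusted p = 0.0334). The other 9 summed to 13.2 to 17.99 CPM in the full deletion and 13.95 to 16.2 CPM in WT, which overlapped. The median of the 7 tested was 0.37, and 0.07 without WT b. Neither Fgf4 nor Otx2 passed without WT c or without any full-deletion sample. Feeder markers summed to 18.6 to 21.9 CPM in the full deletion and 14.9 to 15.9 CPM in WT, with 4 to 5 of 10 at 0. Means were higher in the full deletion for Tagln (11.55 against 9.12 CPM), Thy1 (4.67 against 3.41), Acta2 (2.55 against 1.60) and Col1a2 (0.263 against 0.0479). They were lower for Col1a1 (0.295 against 0.620) and Twist1 (0.40 against 0.61). Col3a1, Postn and Dcn were at 0 in both groups, and Lum was at 0 in WT. The marker sums moved with the lower Myc and Myc target levels, and their part in that result was not tested. In the KO the ESC markers summed to 5843 to 5995 CPM against 5112 to 5637 CPM in its WT, the differentiation markers to 53.9 to 54.3 against 59.4 to 83.3 CPM and the feeder markers to 14.1 to 15.2 against 12.2 to 13.4 CPM, each without overlap. The differentiation sum joined opposite moves. Otx2 averaged 32.7 CPM in the KO and 18.4 CPM in WT. Pdgfra averaged 3.90 and 18.3 CPM, and Gata6 1.62 and 6.47 CPM, in the same order. These genes were named after their values were seen. Of the 8 differentiation markers tested, 6 were negative and 2 positive, with a median log2 fold change of -0.87. With edgeR 5 had an unadjusted p under 0.05, beside 12.6% of all genes, and none passed an adjusted p of 0.05. The marker sums of the KO moved with its germline gene levels, and their part in that result was not tested. In bulk samples fewer cells of a type and less RNA per cell cannot be told apart.

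Across the 15 samples, with each experiment centred on its mean, the genes whose log2 CPM was most like that of Myc were Zfp423 (Pearson r = 0.966), Zbtb2 (0.953), Enc1 (0.948), Wdr55 (0.948) and 1190002N15Rik (0.939), out of 9680 genes. The least alike were Snx30 (-0.959), Snx25 (-0.954) and Klhl24 (-0.951). For Mycn they were Ina (0.912), Trp53bp1 (0.896), Pdzd4 (0.890), Kif20a (0.883) and Bend3 (0.870), and at the other end Dact2 (-0.843), Tmem51 (-0.842) and Jun (-0.837). Among the network genes, Myc and Mycl had r = -0.844 and Max and Mnt r = 0.774. These describe 15 samples that share batches, WT samples and scaling, and the genes were picked as extremes of many.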

How the data were processed

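RNA-seq counts of 15 samples in 6 groups were used, grouped by the labels. The authors depleted ribosomal RNA, made strand-specific libraries, trimmed 3 bases from each read and aligned them to mm9 with bowtie through QuasR. Reads with several alignments were placed at random, same-strand reads were summed over the exons of UCSC known genes, and raw counts and exonic widths were deposited. Here, a mean count of 10 was the minimum for a test with edgeR 4.0.16 (R 4.3.3, TMM, quasi-likelihood, Benjamini-Hochberg over all genes), of which 13912 and 13098 were tested in the KO and full-deletion experiments. The threshold was an adjusted p under 0.01 and 2-fold, as in the study, with 0.05 and no fold as a second. Batch was a term only for the former. Same-letter samples deviated together there (r between 0.319 and 0.758). RPKM was CPM per kilobase of the deposited width. SE was derived from the F statistic, and 95% intervals from its t distribution. Replicates differed beyond counting error (chi-square per degree of freedom 4.04 to 140), and count intervals cover counting error only. P-values measure the spread between cultures of a single line per genotype.

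Alternatives were DESeq2 1.42.0, limma 3.58.1, other scalings and filters, the block, and each sample left out. The fits were tested on simulated data. The members and gene lists were chosen with earlier results of these data known. Named genes were the members, and of each list at most the 4 of lowest adjusted p beside those called. Eif4e and Ccnd2 were named after their values were seen, as the remaining ones of 6. For likeness, genes averaging 100 counts or more in both experiments and log2 CPM with a prior count of 2 were used.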

Additional observations from a re-analysis of the deposited data

Results flagged for a closer look

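Hmga1 counts fell further below WT in the full deletion than in the KO, with a log2 difference of the effects of -3.58 (interaction term, edgeR adjusted p = 2.02e-05). The full deletion removes the coding sequence, while the KO keeps a shorter transcript, so this difference is not a measure of Hmga1 protein loss. None of the 6 network genes tested passed the same test, with adjusted p values of 0.225 or more. Groups here hold 2 or 3 samples, so none was searched for a single outlying sample.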

How the results depend on the processing

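In 800 alternative values for 47 results on network genes, none passed an adjusted p of 0.01 and 2-fold, and 38 changed sign, 22 of them when 1 sample was left out. With summed counts as the scaling, the full deletion gave 0.24 for Mycn, 0.23 for Max and 0.0604 for Mga, the Hmga2 add-back against WT 0.014 for Mga, and the interaction 0.14 for Myc and 0.16 for Max. Max in the Hmga1 add-back against WT was at -0.0171 with DESeq2 size factors, at -0.0166 with its Wald test, at -0.00012 with limma and at -0.0036 with only the groups compared. Without the replicate block, Mga and Mnt were at 0.0188 and 0.0813 for the Hmga1 add-back against WT, Max, Mga and Mnt at 0.0411, 0.0457 and 0.15 for Hmga2 added back, and Mnt at -0.0136 in the interaction. With the block in the full deletion, where the letters do not pair the samples (r between -0.0546 and 0.0703), Myc had an adjusted p of 0.0459. The block cannot move the difference in the log2 ratio of Mycn to Myc from 0.73, since both groups hold the same letters.

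Leaving out samples gave these ranges. KO against WT had -1.28 to 0.35 for Myc, -0.0202 to 0.14 for Max and -0.10 to 0.33 for Mnt. The Hmga1 add-back against WT had -1.39 to 0.23 for Myc, -0.0659 to 0.0665 for Max, -0.37 to 0.059 for Mnt and -0.0209 to 0.17 for Mxd4. The Hmga2 add-back against WT had -1.62 to 0.0183 for Myc, -0.10 to 0.0309 for Mga, -0.29 to 0.13 for Mnt and -0.25 to 0.42 for Mxd4. Against the KO, Myc ranged from -0.51 to 0.34 and Max from -0.14 to 0.0149 in the Hmga1 add-back, and Myc from -0.79 to 0.20 in the Hmga2 add-back. The interaction had -1.13 to 0.51 for Myc. Called genes over all genes ranged from 0 to 62 (main count 3) for KO against WT, 2 to 37 (2) and 3 to 105 (9) for the Hmga1 and Hmga2 add-backs against WT, 0 to 2 (1) for the Hmga2 add-back against the KO, 1 to 362 (9) for the full deletion and 1 to 41 (11) for the interaction. The upper ends came from leaving out WT b, for the interaction that of the full-deletion experiment, except for the Hmga2 add-back against the KO. At an adjusted p of 0.05 the full deletion gave 0 to 21 Myc targets (6) and 0 to 7 germline genes (4), alternatives chosen after seeing the data.

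In the order KO, Hmga1 add-back and Hmga2 add-back against WT, Hmga2 add-back against KO, full deletion and interaction, called genes were 17, 6, 22, 3, 31 and 26 without a filter, 76, 76, 107, 10, 463 and 109 with DESeq2, and 9, 6, 21, 2, 363 and 47 at an adjusted p of 0.05 with 2-fold. The Hmga1 add-back against the KO gave 2 with DESeq2 and 4 with only its groups, and the Hmga2 add-back 100 against WT with only its groups and 2 against the KO with limma. Without the block the counts were 1 for the KO, 4 for the Hmga2 add-back against WT and 17 for the interaction, with the block 4 for the full deletion, and with summed counts 3 for the full deletion and 4 for the interaction. The causes were not tested. Counts of 5 to 41 reads limit Mxd4.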
